A study of Mus musculus with 2 samples.

Results

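The genes described here are the 10 that make, break down and read retinoic acid in the mouse embryo, and the measurement is which stretches of open chromatin were assigned to them in cardiac progenitor cells (CPCs). They are Aldh1a1, Aldh1a2, Aldh1a3 and Rdh10 for synthesis, Cyp26a1, Cyp26b1 and Cyp26c1 for breakdown, and the receptor genes Rara, Rarb and Rarg. A peak belonged to a gene when the peak list carried that gene's symbol, and each distinct interval was counted once. The 10 genes stood among 21900 protein coding genes, and 24 of the 26232 distinct peaks carried one of their symbols.

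ATAC-seq reads open chromatin from the places where the transposase Tn5 can cut and tag the DNA. The cells were E14 Tg(Nkx2-5-EmGFP) embryonic stem (ES) cells, with the strain label C57BL/6, that carried a green fluorescent reporter of the heart factor Nkx2-5 and had been differentiated to CPCs for 5 days. All came from this ES line, which was kept on embryonic fibroblasts before differentiation, and the protocols in the sample labels name no sort for the reporter, although the study sorted reporter-positive cells in other steps. BMP4, Activin A, VEGF, bFGF, FGF10 and ascorbic acid were the factors named for the differentiation, with no retinoid among them. Whether the media or their supplements held vitamin A is not stated, so the culture is not shown to be free of retinoids. The 2 replicates came from independent differentiations and shared 1 list of peaks common to them, without read counts, scores or values per replicate. There was 1 group, so nothing could be tested over samples, depth was unknown and no value had a replicate error. Shares over all genes or all peaks are given beside the main counts, as a description.

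Retinoic acid is a small signal made from vitamin A in consecutive oxidation steps. Rdh10 carries out the first step, from retinol to retinaldehyde, and the Aldh1a enzymes the second, from retinaldehyde to retinoic acid. The Cyp26 enzymes oxidise retinoic acid for clearance, and the receptors RARα, RARβ and RARγ bind DNA as partners of the RXR receptors at direct repeats of short words related to AGGTCA. In the early embryo, retinoic acid made by Aldh1a2 in the mesoderm limits the second heart field at its posterior border and takes part in the formation of the inflow tract and atria. Cyp26a1 and Rarb are textbook examples of genes that retinoic acid itself switches on.

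The sequences before the start sites of Rarb and Cyp26a1 are shown because each held a direct repeat of this kind inside an open region. A repeat could be built from the word AGGTCA, from the related word AGTTCA that both genes hold, from the word GGGTCA, or from the word GGTTCA found at Rarb, on either strand and with 5 bases between the copies (DR5). The words of a repeat could differ from each other. The 29 bases around each repeat, read on the minus strand of mm9, are printed with the repeated words in capitals. The Rarb site lay at chr14:17408021-17408049 and the Cyp26a1 site at chr19:37772260-37772288.
Rarb DR5: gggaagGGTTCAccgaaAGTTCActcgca
Cyp26a1 DR5: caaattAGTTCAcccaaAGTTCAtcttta

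The 300 bases before each of these starts are given on the strand of the gene, ending at the base before the start, with the words of the repeat in capitals. For Rarb the start was that of transcript Rarb-202 and the bases were chr14:17407987-17408286 on the minus strand, and for Cyp26a1 they were chr19:37771998-37772297 on the plus strand.
Rarb-202: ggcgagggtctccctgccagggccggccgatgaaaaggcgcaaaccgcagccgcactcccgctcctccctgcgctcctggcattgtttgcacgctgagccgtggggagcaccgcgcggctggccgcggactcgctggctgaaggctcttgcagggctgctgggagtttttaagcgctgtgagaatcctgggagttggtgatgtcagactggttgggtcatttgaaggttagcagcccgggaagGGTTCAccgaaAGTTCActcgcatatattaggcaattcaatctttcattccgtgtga
Cyp26a1: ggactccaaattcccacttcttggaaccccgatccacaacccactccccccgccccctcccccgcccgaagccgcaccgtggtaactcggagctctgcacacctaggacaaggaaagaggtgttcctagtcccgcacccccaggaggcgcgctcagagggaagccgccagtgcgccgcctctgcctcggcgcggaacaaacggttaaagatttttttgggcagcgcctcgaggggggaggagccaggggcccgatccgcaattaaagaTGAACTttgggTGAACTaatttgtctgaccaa
The Rarb repeat spanned -57 to -41 bp and the Cyp26a1 repeat -32 to -16 bp from the start. The Rarb repeat ran in the direction of transcription. The Cyp26a1 repeat ran against it, so its words appear above as their reverse complement, TGAACT. Of 46015 annotated coding start sites in the genome, 39 (0.0848%) had a DR5 match in the 300 bases before the start. Both of these regions lay within a peak of the CPC list.

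All 10 genes had at least 1 peak, against 62.5% of all protein coding genes. Aldh1a1 had 1 peak, 5 genes had 2, 3 genes had 3, and Rdh10 had the most with 4. The mean was 2.40 peaks per gene (median 2, range 1 to 4, n = 10 genes), compared with a mean of 1.71 and a median of 1 over all genes with a peak. At least 2 peaks were assigned to 9 of the 10 genes, against 24.4% of protein coding genes. A nearest-start rule can hand more peaks to a gene whose neighbours are far away. The distance between the coding starts of other genes on either side had a median of 326 kb for the 10 genes and 89.4 kb over 22054 genes. Over protein coding genes with more than 100 kb between such neighbours, 77.6% had a peak and 40.7% had at least 2, and 7 of the 8 retinoic acid genes of that kind had at least 2. The other 2, Rara (74.9 kb) and Rarg (47.5 kb), had 2 and 3 peaks in smaller spaces. Over the 9736 protein coding genes with at most 100 kb, 57.3% had a peak and 13.7% had at least 2. The part of spacing in the peak numbers was not tested further.

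By the deposited distance from the assigned transcription start site (TSS), 7 genes had a peak with its midpoint within 1 kb, against 50.0% of protein coding genes. The exceptions were Cyp26b1, Cyp26c1 and Rara. A peak beyond 10 kb was assigned to 7 genes as well, against 23.9% of protein coding genes, the exceptions being Aldh1a1, Cyp26c1 and Rarg. Rara counted through a peak deposited at -11563 bp that lay 1685 bp from a GENCODE start of Rara. By the nearest GENCODE coding start, 6 genes had a peak beyond 10 kb. Over genes of the wide spacing defined above the share was 42.6%, and 6 of the 8 retinoic acid genes of that kind had such a peak. With a limit of 25 kb the count fell to 4 genes. The shares above are for 10 kb, and none is given here for 25 kb. Over the peaks, 7 of 24 (29.2%) lay within 1 kb, 6 (25.0%) between 1 and 10 kb and 11 (45.8%) beyond 10 kb, while the shares over all peaks were 44.9%, 13.8% and 41.4%. Of the 24 peaks, 12 lay upstream and 12 downstream of the assigned TSS. In the GENCODE annotation 8 peaks (33.3%) covered a coding TSS, against 44.4% of all peaks. Another 7 (29.2%) had their midpoint in an intron, against 21.4%, and 7 (29.2%) were intergenic, against 30.6%. The remaining 2 (8.33%) lay in a coding exon, against 2.28% of all peaks.

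**Figure D1:**
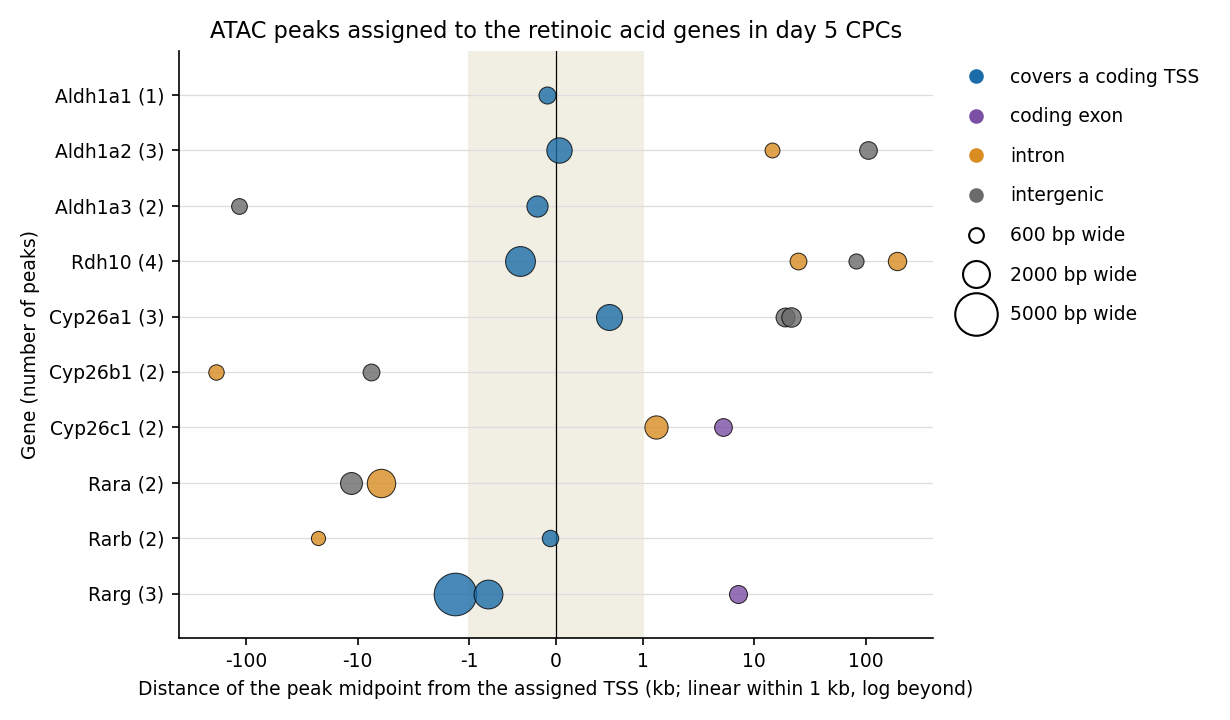
Each point is 1 of the 24 peaks, placed by the distance of its midpoint from the assigned TSS in kb (linear within 1 kb, log beyond; the shaded band is 1 kb on either side), with the area of the point proportional to peak width and the colour giving the annotation class. The synthesis genes each have a peak in the band, Cyp26b1, Cyp26c1 and Rara have none there, and the widest point is the 5021 bp peak of Rarg.

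The 4 synthesis genes carried 10 peaks, and each had 1 over its main start site. At Aldh1a2, the enzyme that makes most retinoic acid in the early embryo, 3 peaks were assigned. The first was 1780 bp wide with its midpoint 31 bp downstream of the TSS (chr9:71062738-71064517), wider than 79.1% of all peaks within 1 kb of a TSS. The second lay in an intron 14422 bp downstream (chr9:71077713-71078324, 612 bp), and the third in intergenic sequence 104773 bp downstream (chr9:71167938-71168802, 865 bp), past the end of the 80.5 kb gene. All 3 midpoints lay downstream of the TSS.

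Rdh10, the retinol dehydrogenase of the embryo, had 4 peaks spread over 188 kb. The peak at the start (chr1:16094314-16096772, midpoint at -421 bp) spanned 2459 bp, wider than 95.2% of its distance class. It also covered the coding start of Rpl7, a ribosomal protein gene on the left, so it cannot be given to Rdh10 alone. The others were downstream at 24443 bp in an intron of Rdh10 (chr1:16120017-16120796, 780 bp), at 80829 bp in intergenic sequence (chr1:16176478-16177107, 630 bp) and at 188261 bp in an intron of the neighbouring gene Stau2 (chr1:16283760-16284690, 931 bp). The nearest GENCODE coding start to the last of these was still that of Rdh10.

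Aldh1a3, which makes retinoic acid in the eye and nasal region of the embryo, had 2 peaks. The start of Aldh1a3-001 was covered by a peak of 1240 bp (chr7:73571965-73573204, midpoint at -221 bp), and the other lay in intergenic sequence at -117017 bp (chr7:73689038-73689723, 686 bp). The second coding start, Aldh1a3-005, was 7844 bp from the nearest peak. Aldh1a1, an enzyme of the adult liver and the dorsal retina, had a lone peak of 802 bp over its start (chr19:20675972-20676773, midpoint at -100 bp). It was narrower than most peaks at a start, with 5.73% of peaks within 1 kb of a TSS being narrower still.

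The 3 breakdown genes carried 7 peaks, of which 1 lay within 1 kb of a start. That was at Cyp26a1, the main retinoic acid hydroxylase of the gastrulating embryo. Its peak was 1864 bp wide and covered the start, with the midpoint 609 bp downstream (chr19:37771976-37773839). Since the gene is 3.72 kb long, this peak reached over a large part of the gene. A pair of intergenic peaks followed past the end of Cyp26a1, at 18663 bp (chr19:37790469-37791454, 986 bp) and 21527 bp (chr19:37793303-37794348, 1046 bp), only 1848 bp apart.

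Cyp26c1 lies next to Cyp26a1 on the same strand, with Exoc6 on its other side. Its 2 peaks were inside the gene, at 1319 bp downstream of the TSS in an intron (chr19:37760745-37762234, 1490 bp) and at 5198 bp in a coding exon (chr19:37764933-37765804, 872 bp). Neither covered the annotated start, which was 674 bp from the edge of the nearer peak. Seen together, the neighbours Cyp26c1 and Cyp26a1 had 5 peaks within 33.6 kb of chromosome 19 (37760745 to 37794348). These peaks covered 6258 bp, and no peak with the symbol of another gene lay among them. The nearest-start rule gave the peaks in Cyp26c1 to that gene, and whether they belong to it or to Cyp26a1 was not tested.

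Cyp26b1, which clears retinoic acid in the hindbrain, limbs and gonads, had 2 peaks and none at a start. One was intergenic at -7615 bp (chr6:84551127-84551908, 782 bp). The other was deposited with the symbol Cyp26b1 at -186332 bp (chr6:84729906-84730563, 658 bp), in an intron of Exoc6b. The nearest GENCODE coding start to that peak was that of Exoc6b itself, 40101 bp away, so this assignment depended on the annotation used. With every peak given to its nearest GENCODE coding start, Cyp26b1 had 3 peaks, this one not among them. The 2 coding starts of Cyp26b1 were 7387 and 12495 bp from the nearest peak.

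The 3 receptor genes carried 7 peaks, from 554 to 5021 bp wide. Rarg, the receptor of the early embryo's trunk and skeletal precursors, had the widest of the 24. This peak was 5021 bp wide (chr15:102075772-102080792, midpoint at -1350 bp) and covered the inner start of transcript Rarg-002, and 22 of the 26232 peaks were wider. Another was 2299 bp wide and covered the neighbouring starts of Rarg-001 and Rarg-006 (chr15:102087590-102089888, midpoint at -785 bp). The last lay in a coding exon 7079 bp downstream of a start (chr15:102069406-102070300, 895 bp). All 3 coding starts of Rarg were thus covered, and the 3 peaks took up 8215 bp around a gene of 22.6 kb.

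Rara, the most broadly expressed receptor, showed the opposite arrangement. It had 6 coding starts in the annotation, and no peak covered any of them. A peak of 1332 bp lay in intergenic sequence (chr11:98786782-98788113), 1685 bp upstream of the outermost start by GENCODE and at -11563 bp by the deposited distance. The other, of 2229 bp, lay in an intron (chr11:98814458-98816686, -6214 bp) and was wider than 94.4% of peaks between 1 and 10 kb from a TSS. It stood on 2 lines of the list and was counted once. The distances of the 2 peaks were measured from different starts of Rara. The starts lay 1019 to 12912 bp from the nearest peak edge.

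Rarb, a receptor whose own gene is induced by retinoic acid, spans 388 kb and has starts far apart. The inner start, of Rarb-202, was covered by a peak of 743 bp with its midpoint at -65 bp (chr14:17407685-17408427), which held the DR5 repeat printed above. Of all peaks within 1 kb of a TSS, 3.53% were narrower. A second peak of 554 bp, the narrowest of the 24, lay in an intron at -22873 bp (chr14:17430587-17431140). The outer start, shared by Rarb-201 and Rarb-203, was 220241 bp from the nearest peak. Inside introns near the other end of the gene lay 2 further peaks (chr14:17280013-17280579 and chr14:17281013-17281891) that carried the symbol of the neighbour Top2b and are not counted among the 24. Their distance from the Rarb-202 start was 127690 and 126534 bp, against 82575 and 83731 bp from the start of Top2b. Other symbols on peaks within 10 kb of the 10 genes were Lrrk1 beside Aldh1a3 and Gjd3 beside Rara, each at the neighbour's own start, and Cyp26a1 and Cyp26c1 beside each other.

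**Figure D2:**
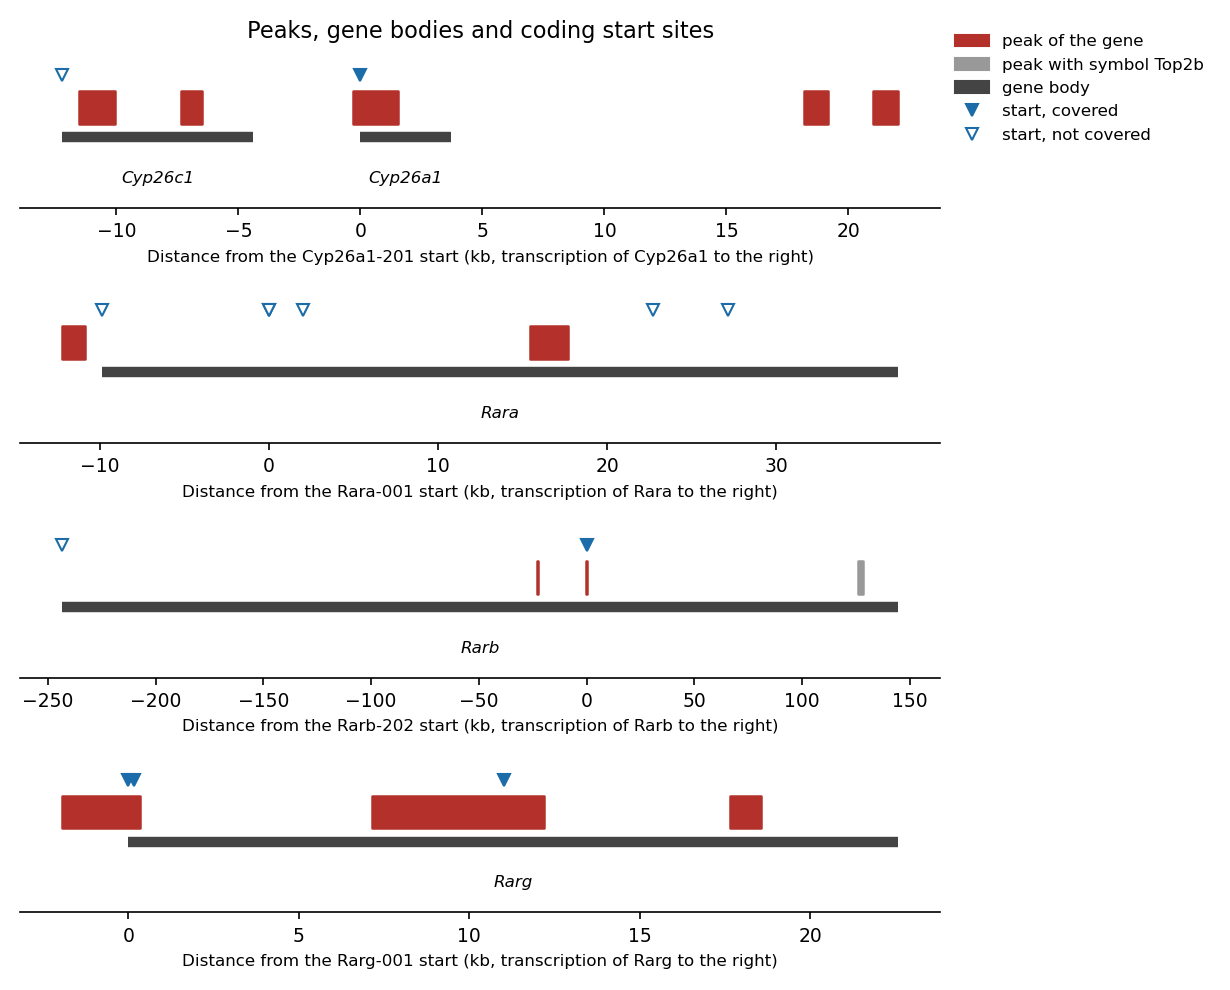
Maps of Cyp26c1 and Cyp26a1, Rara, Rarb and Rarg, with the distance in kb from the named start on the horizontal axis and transcription to the right, peaks of the gene in red, peaks with the symbol Top2b in grey (2 peaks too close to separate at this scale), gene bodies as dark bars, and coding starts as triangles, filled where a peak covers them. All starts of Rarg are filled, none of Rara are (2 of its 6 coincide at 0), and of Rarb the inner one is.

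To see how these start sites compare with others, the 20 coding starts of the 10 genes were classed by CpG content within 500 bp. Promoters rich in CpG dinucleotides are typically unmethylated and open in many cell types, whereas CpG-poor promoters are more often open in particular cells. CpG-rich here meant a GC content of 50% or more together with a ratio of observed to expected CpGs of 0.6 or more. A peak covered 9 of the 20 starts, against 51.2% of 46015 coding starts in the genome. Of the 10 CpG-rich starts 6 were covered, against 88.0% of 20117, and of the 10 CpG-poor starts 3 were covered, against 22.6% of 25898. Starts of the same gene share their surroundings, so these counts are not of independent sites.

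The 4 uncovered CpG-rich starts were 1 of Cyp26b1 (CpG ratio 0.85) and 3 of Rara (0.64 to 0.70). A start without a peak may have been called in 1 replicate only or fallen under the limit of the caller, and closed chromatin was not measured. The covered CpG-poor starts were that of Aldh1a1 and the outer pair of Rarg. The Rarg starts had ratios of 0.53 and 0.58, close to the limit, while that of Aldh1a1 was 0.17 with a GC content of 45.5%. The outer Rarb start, which had no peak near it, was the poorest at 0.08.

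The 300 bases before 3 of these starts are printed on the strand of the gene with each CpG in capitals, to show an open CpG-poor start, an open CpG-rich start and a CpG-rich start without a peak. They are Aldh1a1 (chr19:20676151-20676450, plus strand, 1 CpG), Aldh1a2 (chr9:71063296-71063595, plus strand, 46 CpGs) and Rara-002 (chr11:98798712-98799011, plus strand, 15 CpGs).
Aldh1a1: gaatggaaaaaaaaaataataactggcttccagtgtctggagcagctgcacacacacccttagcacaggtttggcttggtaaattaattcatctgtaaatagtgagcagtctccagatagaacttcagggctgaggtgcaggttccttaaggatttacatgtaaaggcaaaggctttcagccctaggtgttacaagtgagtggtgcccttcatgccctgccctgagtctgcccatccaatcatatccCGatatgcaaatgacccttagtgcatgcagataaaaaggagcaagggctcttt
Aldh1a2: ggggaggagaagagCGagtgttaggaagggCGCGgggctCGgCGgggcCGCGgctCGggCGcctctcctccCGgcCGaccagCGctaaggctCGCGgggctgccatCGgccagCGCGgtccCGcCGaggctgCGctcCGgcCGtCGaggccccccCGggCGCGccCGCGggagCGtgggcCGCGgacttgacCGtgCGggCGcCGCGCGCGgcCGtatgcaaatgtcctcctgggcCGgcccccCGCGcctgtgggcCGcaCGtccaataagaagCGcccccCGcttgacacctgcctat
Rara-002: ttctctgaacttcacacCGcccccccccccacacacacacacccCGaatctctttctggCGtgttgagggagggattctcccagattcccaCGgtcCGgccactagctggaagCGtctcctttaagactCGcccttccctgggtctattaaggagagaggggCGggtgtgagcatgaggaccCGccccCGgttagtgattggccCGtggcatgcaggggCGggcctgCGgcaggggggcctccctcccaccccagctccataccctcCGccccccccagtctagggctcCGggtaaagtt
Both Aldh1a1 and Aldh1a2 were covered by a peak although these bases held the fewest CpGs of any covered start and the most of all 20.

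**Figure D3:**
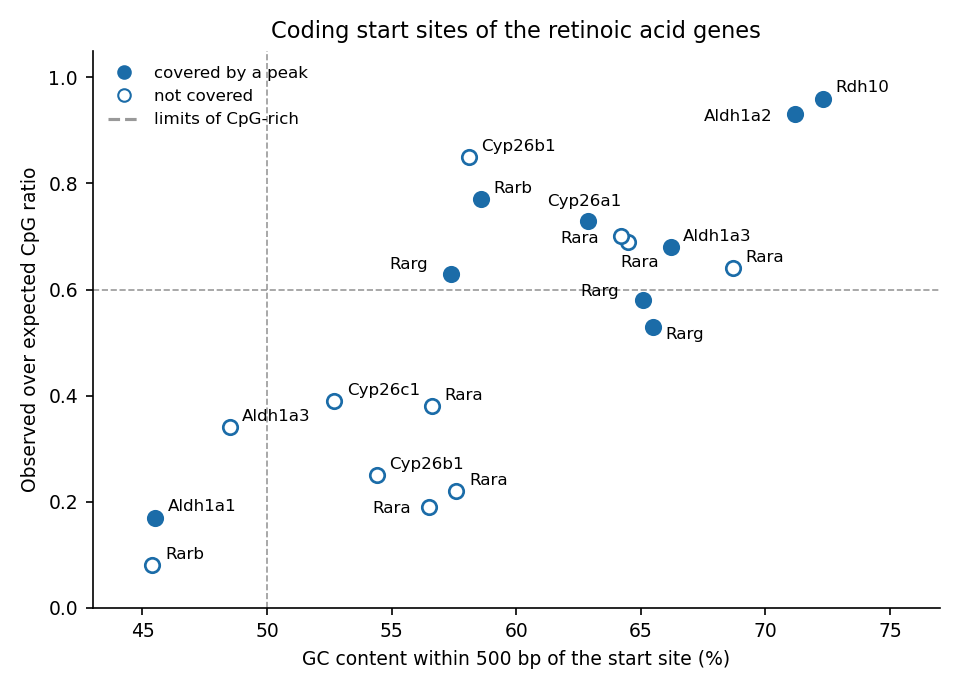
Each point is 1 of the 20 coding starts of the 10 genes, by GC content in percent and the ratio of observed to expected CpG within 500 bp, filled where a peak covers the start. Above both dashed limits 6 of 10 points are filled, and the filled point at the lower left is Aldh1a1.

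The width of a peak followed its distance from a start in these genes as in the whole list. The 24 widths had a median of 913 bp (95% order-statistic interval 780 to 1490 bp, range 554 to 5021 bp), against 1081 bp over all peaks. The interval treats the 24 peaks as independent, although peaks of the same gene share their surroundings and all come from 1 list. It is given as a description and cannot decide whether these widths differ from those of all peaks. Within 1 kb of a TSS the median was 1780 bp over 7 peaks, against 1326 bp, and beyond 10 kb it was 780 bp over 11 peaks, against 880 bp. Between 1 and 10 kb it was 1192 bp over 6 peaks, against 1014 bp. Within 1 kb, 4 of the 7 peaks (Aldh1a2, Rdh10, Cyp26a1 and Rarg) were wider than the upper quartile of that class, 1692 bp. Rarb and Aldh1a1 were below the lower quartile of 1072 bp, and Aldh1a3 was between. Beyond 10 kb, 5 of the 11 peaks were below the lower quartile of 717 bp and the outer Rara peak was above the upper quartile of 1097 bp. That Rara peak is in this class by the deposited distance and lay 1685 bp from a GENCODE start. By role, the median width was 834 bp over the 10 synthesis peaks, 986 bp over the 7 breakdown peaks and 1332 bp over the 7 receptor peaks, and the ranges of the 3 roles overlapped. An interval in the list has the bounds called in 1 replicate, so a width also depends on the depth of that replicate, which is not known.

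**Figure D4:**
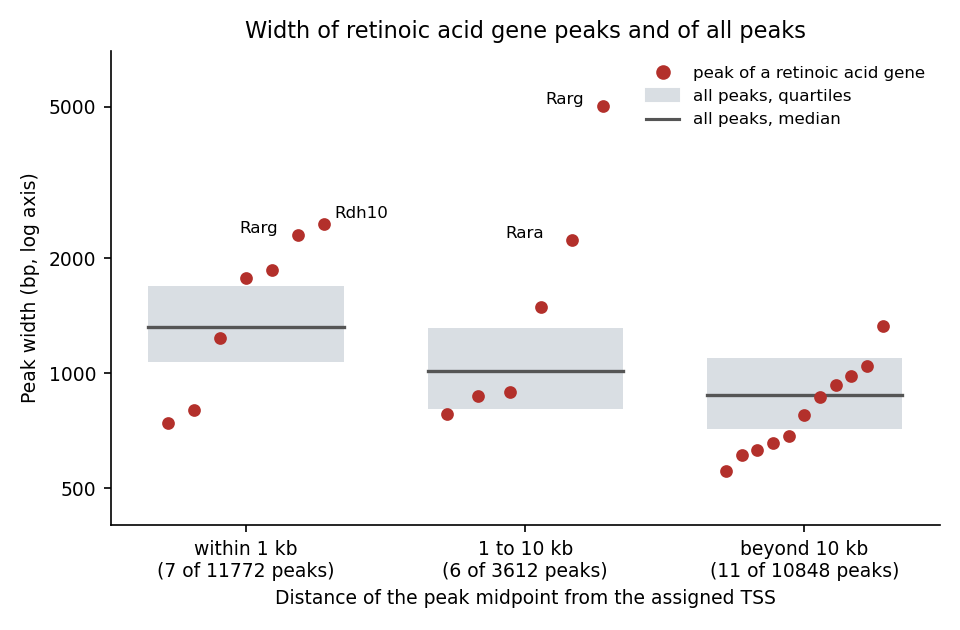
Width in bp on a log axis of the 24 peaks (red points, spread sideways in order of width) by distance class, beside the quartiles (grey box) and the median (line) of all peaks in the class. Points within 1 kb lie on both sides of the box, and the 5021 bp Rarg peak stands above all others.

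The DR5 search was run over the 1000 bp around the midpoint of every peak, together with the closer repeats and with words of 2 heart factors. A DR5 match stood in 1 of the 24 peaks, that of Rarb, against 0.347% of all peaks. The allowed words include those of the textbook elements of Rarb and Cyp26a1, so these matches are a description of the sites and support nothing further. With the words AGGTCA and AGTTCA alone, 0 of the 24 peaks held a match in this window, against 0.114% of all peaks. The Cyp26a1 repeat fell outside this window because the midpoint of its wide peak lay 609 bp past the start, and over whole intervals 2 of 24 peaks held a DR5 match, against 0.431% of all peaks. Of the 11 peaks beyond 10 kb, none held a DR5 match in this window, and over the whole list such peaks held one in 0.525%. Repeats with 2 bases between the words (DR2) and with 1 base (DR1) were found in none of the 24, against 0.526% and 0.663% of all peaks. At such shares 24 peaks are too few for a count of 0 to say anything about these repeats.

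The word AGATAA, which GATA factors bind, was found on either strand in 7 of 24 peaks (29.2%), against 29.3% of all peaks. The word CTAATG, a form of the site of the LIM-homeodomain factor Isl1, was in 5 of 24 (20.8%), against 21.6%. Both shares were near those of the whole list, and with words this short a match is a description of the sequence. The peaks with AGATAA were those at the start of Aldh1a1, 104773 bp downstream of Aldh1a2, 24443 bp downstream of Rdh10, 18663 bp downstream of Cyp26a1, the farther of Cyp26b1, the intron peak of Rara and the intron peak of Rarb. The intron peak of Rara also held CTAATG, as did the peaks 188261 bp downstream of Rdh10, 21527 bp downstream of Cyp26a1, in the exon of Cyp26c1 and the 5021 bp peak of Rarg.

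Beyond the 10 genes, 40 genes of the same pathway were counted by role, and 31 of them (77.5%) had a peak, against 62.5% of protein coding genes and 77.6% of those of wide spacing. Among 17 genes of retinol uptake, storage and oxidation, 10 had a peak, with 13 peaks in all and at most 2 per gene. Of the 3 intracellular carriers, Crabp1 and Fabp5 had 2 peaks each and Crabp2, which carries retinoic acid to the nucleus, had none. Of the RXR genes, whose products pair with the RARs, Rxra had 4 peaks, Rxrg had 1 and Rxrb had none. The 9 genes without a peak were Crabp2, Rxrb and 7 of uptake, storage and retinol oxidation.

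All 8 cofactor genes had a peak within 1 kb of a start, against 50.0% of protein coding genes. The 88.0% of CpG-rich starts covered by a peak is another measure, counted per start. The starts of the cofactor genes are not classed by CpG content here. The coactivator genes Ncoa2, Ncoa3 and Ep300 and the repressor gene Nrip1 had 3 each. All 9 genes with textbook retinoic acid response elements had a peak, against 62.5% of protein coding genes and 77.6% of those of wide spacing. A peak within 1 kb of a start was found for 5 of them, against 50.0%. Among the 9 genes Meis1 and Meis2, cofactors of the Hox proteins, had 7 each, and Tbx5, the T-box factor of the atria and inflow tract, had 5, as did the nuclear receptor genes Nr2f1 and Nr2f2. Of these peaks, 4 of Meis1, 5 of Meis2, 4 of Tbx5, 5 of Nr2f1 and 3 of Nr2f2 lay beyond 10 kb. The part of spacing in these numbers was not tested. Hoxb1, a gene of the hindbrain, had 2 peaks, the nearer at 31629 bp from its start.

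**Figure D5:**
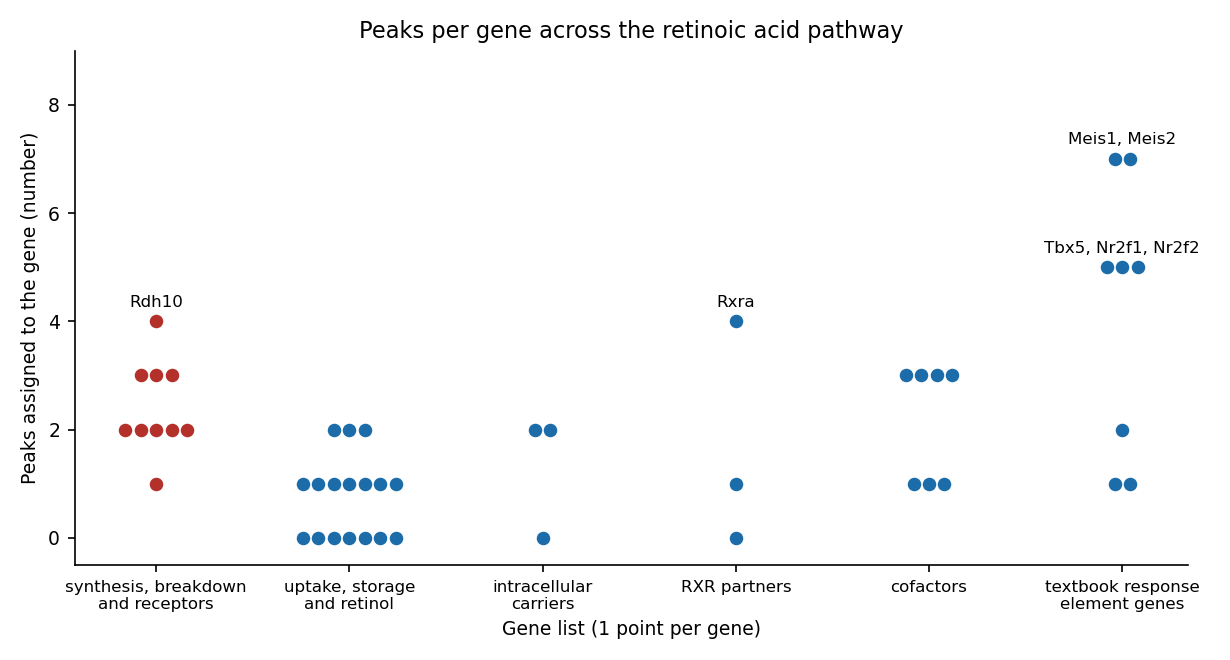
Number of peaks assigned to each gene (1 point per gene) for the 10 genes in red and for 38 other genes of the pathway in blue, by role. None of the 10 genes is at 0 and the highest is Rdh10 with 4, while Meis1 and Meis2 have 7.

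Peaks do not measure expression, and the labelled cell type was checked by peaks alone. Of 8 cardiac progenitor genes 7 had a peak, 6 of them within 1 kb of a start, with 30 peaks in all, and Hand2 had none. The shares over protein coding genes were 62.5% with a peak and 50.0% with one within 1 kb. Peaks also stood at 3 of 4 endothelial genes (1 within 1 kb of a start, 7 peaks in all). So they did at 3 of 4 endoderm and liver genes (1 within 1 kb, 10 peaks). Of the neural genes 3 of 3 had a peak (2 within 1 kb, 11 peaks), and of the pluripotency genes 2 of 3 (1 within 1 kb, 4 peaks). Tek, Afp and Pou5f1 had none. Having a peak was thus not particular to the cardiac list. The list does not tell which cells of the culture carried a peak, and this was not tested for the retinoic acid genes.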

How the data were processed

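ATAC-seq was performed by the authors on CPCs from 2 independent differentiations. Per the study's methods and the submitters' processing notes, reads were mapped to mm9 with Bowtie2, duplicates were removed with Picard 1.136, peaks were called per replicate with MACS14, blacklisted regions were dropped, and bedtools 2.15 was used to keep peaks that overlapped between replicates by 1 bp or more. No correction for the Tn5 cut position is described other than a fixed shift at peak calling. The deposited values, of no standard unit, are the bounds of each peak and the distance of its midpoint from a TSS in bp, negative upstream, beside an accession and a gene symbol. Peaks of 1 replicate alone are left out of the list, which may also lack some lines here, so a gene without a peak is not shown to be closed.

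The 26429 lines held 26232 distinct intervals, which were counted once each. Genes came from GENCODE vM1 and sequence from NCBIM37, which is mm9. A RefSeq gene table of GRCm38.p6 served for names only and held the symbol or accession of 99.8% of peaks. The 10 genes, the pathway lists and the measures were chosen with earlier results of these data known. All 10 genes are named, and of the other pathway genes those with at least 3 peaks and, by count, those with none, except that 2 genes counted in the lists are not reported here, with Crabp1, Crabp2, Fabp5, Rxrb, Rxrg and Hoxb1 named after their values were seen. Motifs were searched in 1000 bp around each midpoint. No test was run. Scripts used Python 3 and were tested on simulated peaks and sequence, in which 200 of 200 planted repeats were found.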

Additional observations from a re-analysis of the deposited data

How the results depend on the processing

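For 18 results, 78 combinations of result and alternative were computed, and 62 stayed within 1.5 times a count or within the interval of the median width. The other 16 moved. With peaks wider than the median, 9 peaks were left, 2 genes had 2 or more, 1 had a peak beyond 10 kb and none held a DR5 match (0 peaks), by construction of the filter, and 8 of the 10 genes' own peak numbers moved too. Under this filter 7 of the 10 genes kept a peak, within the limit of 1.5 times, and Aldh1a1, Cyp26b1 and Rarb had 0. Shares over all genes were not computed under the filter, so these counts cannot be called high or low. With 25 kb in place of 10 kb, 4 genes had a distant peak, without a share over all genes at that limit. A DR5 match was found in 2 peaks with a window of 2000 bp, against 0.736% of all peaks with that window. With the words AGGTCA and AGTTCA alone it was found in 0, against 0.114% of all peaks. Over the whole interval it was found in 2, against 0.431% of all peaks. The whole interval was an alternative chosen after seeing the data, as was the count over genes of wide spacing. Assigning peaks to the nearest GENCODE protein coding TSS gave 26 peaks, with Cyp26b1 and Rarb at 3 each in place of 2. Leaving out a replicate was not possible, since the list holds no value per replicate. No paired analysis was possible because the data hold 1 group only. Depth is unknown, so how it limits these counts is not known.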
